A study of Mus musculus with 12 samples.

Results

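Described here are 43 genes of the endoplasmic reticulum (ER), measured in sorted mouse lung endothelial cells: chaperones, folding enzymes, parts of the protein translocation machinery, components of ER-associated degradation, and transcription factors and targets of the stress response. They were listed by what their products do, with earlier results of these data known, and were found in all 12 deposited tables by their gene symbols. They are 43 of the 24360 genes that could be compared across the tables, and all 43 were among the 11562 genes expressed well enough to be tested. The study compared C57BL/6J mice of 3 genotypes at postnatal day 5, with 4 libraries each, and sorted lung endothelial cells by flow cytometry. The WT mice are labelled wild type; whether they had the Cre transgene or were given its inducer is not said. L12-ECKO mice carried floxed alleles of the Hippo pathway kinases, Lats1f/f and Lats2 f/f, with the Cre driver VE-cadherin-CreERT2. L12YT-ECKO mice carried the same driver and the same 4 floxed kinase alleles, and in addition Yapf/f and TAZf/f, the genes of the transcriptional co-activators that the kinases restrain. The driver restricts deletion to cells that express VE-cadherin and needs an inducer, of which neither dose nor day is given in the sources used here. RNA was read with a 3-prime end method, and the values are normalized log2 expression as deposited, so that a difference of 1 is a doubling.

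Proteins that are secreted or placed in membranes enter the ER through the Sec61 channel, lose their signal peptide to the signal peptidase complex, and fold with the help of the Hsp70 protein BiP, the Hsp90 protein GRP94, lectin chaperones and protein disulfide isomerases. When unfolded proteins accumulate, the sensors IRE1, PERK and ATF6 start the unfolded protein response, in which the factors XBP1, ATF4 and cleaved ATF6 raise the transcription of chaperones and degradation genes, and the HRD1 ubiquitin ligase complex removes misfolded proteins. Endothelial cells secrete much of their own basement membrane and von Willebrand factor through this route.

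Some of these genes share a promoter element. ATF6 and the CCAAT-binding factor NF-Y recognize the ER stress element, and the promoters printed here are those of the BiP gene, in which the element stands close to the start, of Syvn1 and Herpud1, whose values stood apart from WT in a knockout group, and of Calu, the member called by the test. Each is the 250 bases before the RefSeq transcription start on the GRCm38.p6 build, plus strand in all 4 genes, written 5′ to 3′. Capitals mark 3 short motifs on either strand: the CCAAT box, which reads ATTGG when it lies on the opposite strand; the end of the element, CCACG, which there reads CGTGG; and a core bound by ATF6 and XBP1, which is TGACGTG. The box followed after 9 bases by CCACG on the same strand forms the element.
Hspa5, chr2:34771840-34772089: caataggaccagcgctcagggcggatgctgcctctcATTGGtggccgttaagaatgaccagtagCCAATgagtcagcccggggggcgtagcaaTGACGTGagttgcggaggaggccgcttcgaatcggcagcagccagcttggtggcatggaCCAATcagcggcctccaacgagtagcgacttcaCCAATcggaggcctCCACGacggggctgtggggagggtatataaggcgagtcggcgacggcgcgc
Syvn1, chr19:6046326-6046575: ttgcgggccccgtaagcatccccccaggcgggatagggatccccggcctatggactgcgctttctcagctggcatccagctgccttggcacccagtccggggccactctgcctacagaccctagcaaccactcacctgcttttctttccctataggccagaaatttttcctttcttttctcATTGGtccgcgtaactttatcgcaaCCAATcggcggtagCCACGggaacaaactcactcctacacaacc
Herpud1, chr8:94386179-94386428: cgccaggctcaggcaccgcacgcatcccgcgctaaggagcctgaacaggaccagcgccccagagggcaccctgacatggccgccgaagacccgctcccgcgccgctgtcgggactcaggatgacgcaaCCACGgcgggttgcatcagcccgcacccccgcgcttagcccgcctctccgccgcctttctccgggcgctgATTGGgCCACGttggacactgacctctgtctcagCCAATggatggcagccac
Calu, chr6:29347856-29348105: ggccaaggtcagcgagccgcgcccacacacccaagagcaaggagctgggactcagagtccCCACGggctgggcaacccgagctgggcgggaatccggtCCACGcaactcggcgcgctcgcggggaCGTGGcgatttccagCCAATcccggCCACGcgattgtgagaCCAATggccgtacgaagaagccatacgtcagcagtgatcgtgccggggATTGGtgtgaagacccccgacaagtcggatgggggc

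RefSeq promoters, in windows from 250 bases before to 50 bases after the start, were at hand for 36 of the 43 genes. The ER stress element (CCAAT, any 9 bases, then CCACG, both strands) was found in 8 of the 36, or 22.2%, against 37 of 27025 genes, or 0.14%, over all promoters of the same length. In Hspa5 it stands at -65 to -47 from the start (chr2:34772025-34772043) and in Syvn1 at -44 to -26 (chr19:6046532-6046550). The other holders are Hsp90b1, with 2 copies, and Calr, Canx, Creld2, Dnajc3 and Pdia6, and their copies are printed to show how the middle bases vary.
Hspa5: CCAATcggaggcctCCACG
Syvn1: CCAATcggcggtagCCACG
Hsp90b1, first copy: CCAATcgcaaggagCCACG
Hsp90b1, second copy: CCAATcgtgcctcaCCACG
Calr: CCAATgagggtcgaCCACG
Canx: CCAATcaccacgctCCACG
Creld2: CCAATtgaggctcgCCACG
Dnajc3: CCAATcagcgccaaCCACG
Pdia6: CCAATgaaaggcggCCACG

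These lines are written from CCAAT to CCACG, and the copies of Calr and Creld2 and the second copy of Hsp90b1 lie on the strand opposite to the gene. CCACG alone, which is part of the element, was present in 80.6% of the members' promoters and 35.48% of all promoters, and CCAAT alone in 77.8% and 41.06%. All promoters include those of genes not tested here, and the share among tested genes was not computed. TGACGTG was present in Hspa5 and Txndc5, 5.6% of the members' promoters, and in 2.22% of all. A shorter form, ATTGG, 1 base, then CCACG on either strand, searched for after the Herpud1 promoter had been seen, was found in Herpud1 and Dnajb11 (5.6%) and in 12 genes in all (0.04%). The Calu promoter held 4 copies of CCACG and 3 of CCAAT at other spacings.

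The identity of the libraries was checked first. Wwtr1, the gene of TAZ, lay at 8.16 to 9.37 in L12YT-ECKO and at 10.11 to 12.01 in the other 8 libraries, and Yap1 at 6.69 to 8.20 against 9.35 to 10.45. Lats1 lay at 5.32 to 7.45 in WT and 0 to 7.40 in L12-ECKO, and Lats2 at 8.42 to 9.34 and 9.71 to 10.33; the deleted exons are not given, and a 3-prime read outside them checks nothing. The YAP and TAZ target Ctgf lay at 5.84 to 9.08 in WT, 12.71 to 14.74 in L12-ECKO and 8.70 to 10.16 in L12YT-ECKO. The mean of 12 endothelial markers was 13.34 to 13.52 in WT, 13.03 to 13.31 in L12-ECKO, where every library lay below every WT library, and 13.29 to 13.56 in L12YT-ECKO; none of the 12 was at 0 in a whole group. In L12-ECKO 9 of the 12 had lower means than WT and 3 of them (Tek, Ramp2 and Cldn5, at -1.11, -0.80 and -0.67) an unadjusted p under 0.05. Between the knockout groups 8 of the 12 were higher and 3 lower in L12YT-ECKO. Of the higher ones 1 had a limma adjusted p under 0.05 (0.0406), which 0.0692% of all genes tested had. An unadjusted p under 0.05 was found for 3, beside 6.08% of all genes. The part of these shifts in the ER genes' values was not tested. Some rows are displaced in the tables of 5 libraries (replicates 2, 3 and 4 of L12-ECKO, replicates 3 and 4 of L12YT-ECKO), and whether this reflects sequencing or only how the tables were made is not stated. The mean of 15 hepatocyte markers was 3.63 to 6.58 in these 5 libraries and 0.55 to 2.13 in the other 7. Of these markers 9 were at 0 in every WT library, and only Afp was at 0 in every library of each knockout group. Of 7 tested mesenchymal markers 6 were lower in L12-ECKO than in WT and 1 higher (median -0.82). Of the lower ones 3 had an unadjusted p under 0.05, beside 12.2% of all genes. In L12YT-ECKO 6 were lower (median -0.28), none at such a p. Library means of all 9 were 5.43 to 6.15 in WT, 3.93 to 6.63 in L12-ECKO and 4.79 to 6.76 in L12YT-ECKO. Those of 11 lung epithelial markers were 4.78 to 5.86, 3.71 to 6.5 and 3.57 to 6.48. Their part in the ER genes' values was not tested. The mean of 7 myeloid and T cell markers was 9.13 in L12-ECKO replicate 1 and 1.65 to 5.16 in the 8 libraries of WT and L12YT-ECKO, in all of which Cd3e was at 0. By their Xist and Y-linked transcripts 1, 3 and 1 of the 4 libraries of WT, L12-ECKO and L12YT-ECKO were female, so the libraries of a group do not all come from 1 animal. Whether each comes from an animal of its own is not stated, and fewer cells of a type and less RNA per cell cannot be told apart in such bulk samples.

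The first comparison, L12-ECKO with WT, addresses loss of both kinases. Most of the ER genes had somewhat higher means in L12-ECKO: 35 of 43 were higher and 8 lower, with a median difference of 0.27 on the log2 scale against -0.02 over all genes tested. Only Calu, which encodes the calcium-binding ER protein calumenin, rose by the test used throughout (limma, adjusted p under 0.05 over all genes), so 1 of 43 was called, beside 0.484% of all genes tested. At an unadjusted p under 0.05 stood 6 members (Calu, Syvn1, Spcs2, Sec61g, Txndc5 and Hsp90b1), all higher; this is 14% of the members, and 12.2% of all genes passed in either direction. In 3 members, Calu, Sdf2l1 and Herpud1, the 4 L12-ECKO libraries all lay above the 4 WT libraries, which 2.98% of all genes did, and no member lay wholly below, which 3.36% did. The count of higher members was 27 of 43 without L12-ECKO replicate 2, with a median difference of 0.23 (all genes -0.03).

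The second comparison, L12YT-ECKO with WT, addresses loss of the kinases together with YAP and TAZ, and uses the same 4 WT libraries. Of the 43 genes 25 were higher and 18 lower, with a median difference of 0.06 against 0.08 over all genes. None was called, beside 0.00865% of all genes (1 gene), and the smallest adjusted p of a member was 0.443, that of Syvn1. At an unadjusted p under 0.05 stood 3 members (Syvn1, Atf4 and Calu, all higher), or 6.98%, beside 6.26% of all genes. In Syvn1 and Atf4 the 4 L12YT-ECKO libraries lay above the 4 WT libraries, as in 2.55% of all genes; none lay wholly below, as 2.16% did. The median was -0.02 without WT replicate 2, 0.01 without WT replicate 4, 0.12 without WT replicate 3 and 0.15 without L12YT-ECKO replicate 2.

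The third comparison sets L12YT-ECKO against L12-ECKO directly. Of the members 10 were higher and 33 lower in L12YT-ECKO, with a median difference of -0.20 against 0.09 over all genes. None was called, beside 0.0692% of all genes, and the smallest adjusted p was 0.716, that of Txndc5. At an unadjusted p under 0.05 stood Txndc5, Calu and Sec61b, all lower, or 6.98% beside 6.08% of all genes. No member lay wholly above, beside 2.75% of all genes, and 1, Spcs3, lay wholly below, beside 1.63%. Without L12-ECKO replicate 2 the median was -0.09. Set side by side, 23 members had higher means than WT in both knockout groups, 12 a higher mean in L12-ECKO and a lower one in L12YT-ECKO, 2 the reverse and 6 lower means in both; both differences share the WT libraries, so their similarity is no separate evidence.

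**Figure D1:**
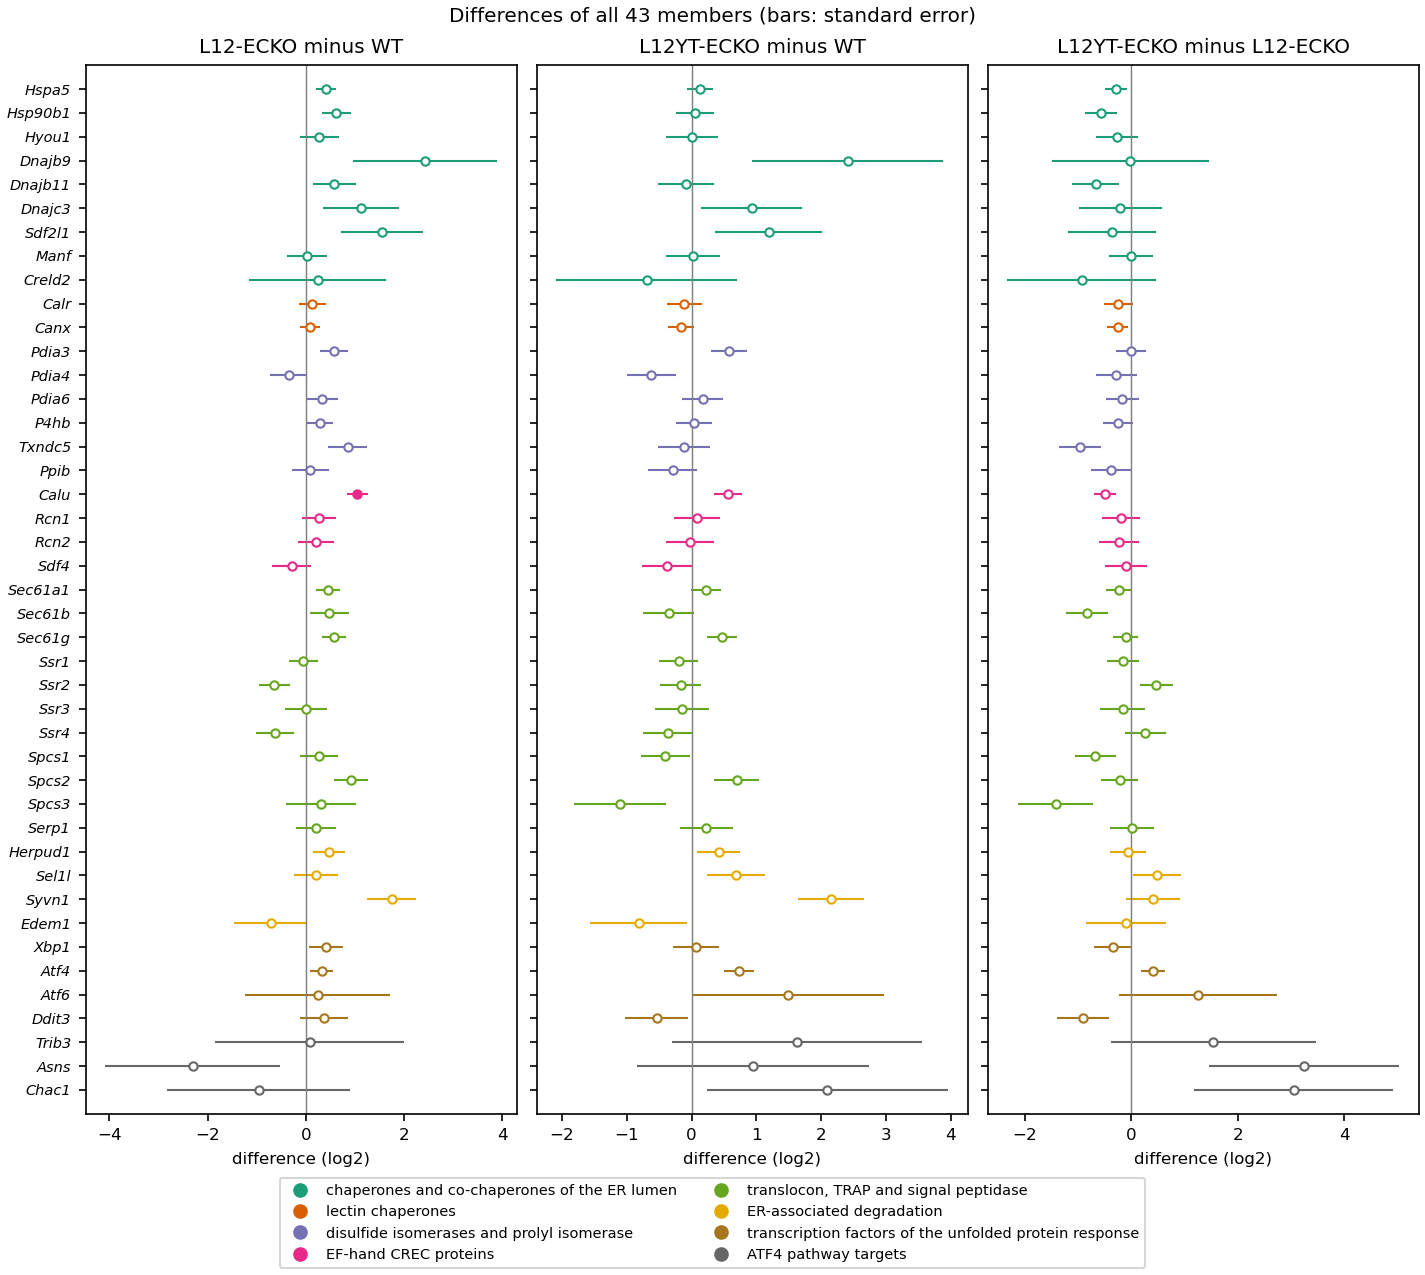
Differences of all 43 genes in the 3 comparisons, on the log2 scale with limma standard errors as bars, ordered and coloured by role; the filled point is the only called difference. Calu stands at 1.05 in the left panel, while low-expressed genes such as Chac1 and Asns have the widest bars.

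The EF-hand proteins of the secretory pathway bind calcium in the ER and Golgi lumen. Calu (chromosome 6, 29348069 to 29377110, plus strand) stood at 13.17, 13.24, 13.74 and 13.22 in WT replicates 1 to 4. Its values were 13.91, 14.36, 14.47 and 14.86 in L12-ECKO, with 13.63, 13.96, 14.10 and 13.94 in L12YT-ECKO. Every L12-ECKO library thus lay above every WT library, and the L12YT-ECKO libraries lay between, overlapping both, with 1 of them below the highest WT library. The mean rose from 13.35 ± 0.27 in WT to 14.40 ± 0.39 in L12-ECKO (SD, n = 4 each), a difference of 1.05 (SE 0.213, limma adjusted p = 0.0332) or 2.07-fold. L12YT-ECKO averaged 13.91 ± 0.20 and differed from WT by 0.56 (adjusted p = 0.748) and from L12-ECKO by -0.49 (adjusted p = 0.778), with SE 0.213 in both. The other members of this family, Rcn1, Rcn2 and Sdf4, differed by -0.29 to 0.27 from WT in L12-ECKO and by -0.38 to 0.08 in L12YT-ECKO, and none passed the test.

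Leaving out 1 library kept the Calu difference at 0.90 to 1.22 but ended the call without WT replicate 1, 2 or 4, L12-ECKO replicate 2, 3 or 4 or L12YT-ECKO replicate 2 (limma adjusted p 0.0516 to 0.113). The call was also lost with sex (0.93, adjusted p = 0.145), the displaced rows (0.75, adjusted p = 0.400) or the hepatocyte mean (0.83, adjusted p = 0.273) as a covariate. Among the libraries without displaced rows, only 1 of which is L12-ECKO, the Calu difference was 0.56, with a spread taken from the other groups. That library, replicate 1, had a hepatocyte mean of 0.87 and a Calu value of 13.91, above all 4 WT libraries. The gene Opn1sw lies on the opposite strand over the last bases of Calu and averaged 1.67, 4.32 and 3.37 in WT, L12-ECKO and L12YT-ECKO. How strand was handled in counting is not stated. Within their last 500 bases Syvn1, Txndc5, Ddit3, Manf, Pdia6, Ppib and Sec61a1 are also overlapped by a gene on the opposite strand. The part of these overlaps in the members' values was not tested.

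**Figure D2:**
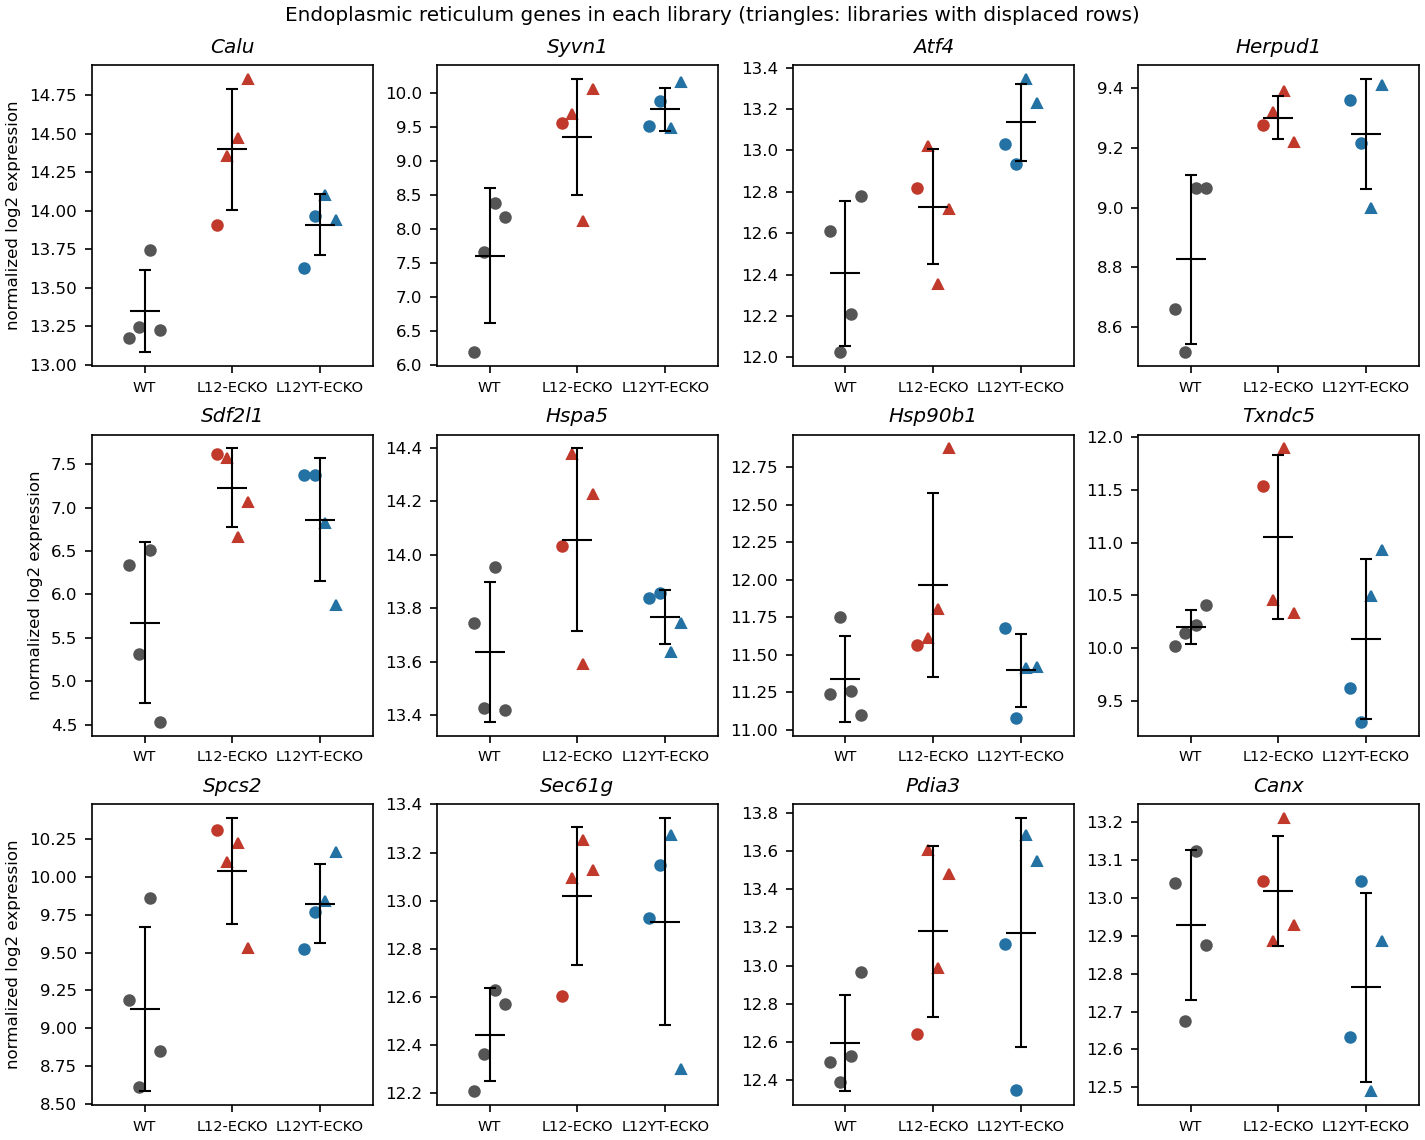
Normalized log2 expression of 12 ER genes in each of the 12 libraries, with group means and SD (n = 4); triangles are libraries with displaced rows, and each axis has its own range and does not start at 0. Calu in L12-ECKO (13.91 to 14.86) and Syvn1 and Atf4 in L12YT-ECKO stand above all 4 WT libraries.

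Among the chaperones and co-chaperones of the ER lumen, all 9 means were higher in L12-ECKO than in WT (median 0.59), 7 were higher in L12YT-ECKO (median 0.06), and all 9 were lower in L12YT-ECKO than with the kinases alone deleted (median -0.29); none was called. Hspa5 encodes BiP, the central Hsp70 chaperone and the classical target of the unfolded protein response (chromosome 2, 34771970 to 34777547). It stood at 13.74, 13.43, 13.95 and 13.42 in WT, 14.03, 14.38, 13.59 and 14.23 in L12-ECKO, with 13.84, 13.86, 13.63 and 13.74 in L12YT-ECKO. In L12-ECKO 3 of 4 libraries lay above all WT libraries and replicate 3 did not, and the L12YT-ECKO libraries lay within the WT range. The differences from WT were 0.42 in L12-ECKO (SE 0.201, limma adjusted p = 0.408) and 0.13 in L12YT-ECKO (adjusted p = 0.936).

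Hsp90b1, the gene of GRP94, stood at 11.24, 11.75, 11.26 and 11.10 in WT, 11.57, 11.61, 11.81 and 12.88 in L12-ECKO, with 11.68, 11.08, 11.41 and 11.42 in L12YT-ECKO. Its L12-ECKO mean was drawn up by replicate 4: the difference of 0.63 (SE 0.293, limma adjusted p = 0.397) became 0.32 without it. Sdf2l1, a partner of the BiP co-chaperone ERdj3, lay lower in level and stood at 6.34, 5.32, 6.51 and 4.53 in WT, 7.62, 7.57, 6.66 and 7.06 in L12-ECKO, with 7.37, 7.38, 6.82 and 5.88 in L12YT-ECKO. All 4 L12-ECKO libraries were above all WT libraries, and so were 3 of the 4 L12YT-ECKO libraries. The differences were 1.55 (SE 0.827, adjusted p = 0.452) and 1.19 (adjusted p = 0.838).

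Dnajb9, the gene of the co-chaperone ERdj4, was scattered, at 3.90, 0, 3.91 and 7.91 in WT, 6.71, 4.61, 6.89 and 7.23 in L12-ECKO, with 4.58, 6.91, 7.49 and 6.38 in L12YT-ECKO. WT replicate 4 was the highest of all 12 libraries, so the differences of 2.43 and 2.41 (SE 1.47 each) were within the spread. Without WT replicate 2, listed at 0, they were 1.12 and 1.10, and without WT replicate 4 they were 3.76 and 3.73. The remaining 5 are Dnajb11 (ERdj3 itself), Dnajc3 (a BiP co-chaperone that also restrains PERK), Hyou1 (a large Hsp70 that exchanges nucleotide on BiP), Manf (a secreted factor held in the ER) and Creld2. They differed from WT by 0.03 to 1.13 in L12-ECKO and by -0.69 to 0.93 in L12YT-ECKO. The largest of these values, those of Dnajc3, rest on WT replicate 2, at 4.99 where the other 11 libraries lay between 8.87 and 9.77.

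The lectin chaperones, which hold newly made glycoproteins until they are folded, were among the members with the narrowest intervals and small differences. Canx, the membrane-bound calnexin, stood at 13.04, 12.67, 13.13 and 12.88 in WT, 13.05, 12.89, 13.21 and 12.93 in L12-ECKO, with 12.63, 13.05, 12.49 and 12.89 in L12YT-ECKO. All groups overlapped, and the difference of L12-ECKO from WT was 0.09, with a 95% interval of -0.34 to 0.52. Calr, its soluble relative calreticulin, stood at 12.48, 12.02, 12.02 and 11.80 in WT, 11.89, 12.82, 12.11 and 12.01 in L12-ECKO, with 12.16, 11.70, 12.50 and 11.52 in L12YT-ECKO. Its groups overlapped too, and it differed by 0.13 (interval -0.44 to 0.70) in L12-ECKO and by -0.11 (-0.68 to 0.46) in L12YT-ECKO. Between the knockout groups both had lower means in L12YT-ECKO, by -0.25 for Canx and -0.24 for Calr, and neither passed the test.

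Disulfide isomerases form and rearrange the disulfide bonds of secreted proteins. Of the 5 isomerases and the prolyl isomerase gene Ppib, 5 of 6 had higher means in L12-ECKO than in WT (median 0.31), 3 of 6 in L12YT-ECKO (median -0.04), and all 6 were below their L12-ECKO means in L12YT-ECKO (median -0.26). Txndc5, which encodes an isomerase known from endothelial cells, stood at 10.02, 10.15, 10.22 and 10.40 in WT, 11.53, 10.45, 11.89 and 10.33 in L12-ECKO, with 9.62, 9.30, 10.50 and 10.93 in L12YT-ECKO. L12-ECKO replicates 1 and 3 were high and replicates 2 and 4 were close to the highest WT library; in L12YT-ECKO the 2 libraries without displaced rows lay below all WT libraries and the 2 with them above. Its differences were 0.85 in L12-ECKO (SE 0.396, limma adjusted p = 0.396), -0.11 in L12YT-ECKO and -0.97 between the knockout groups (adjusted p = 0.716).

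Pdia3, the isomerase that works with calnexin and calreticulin, stood at 12.50, 12.39, 12.53 and 12.97 in WT, 12.64, 13.61, 12.99 and 13.48 in L12-ECKO, with 13.11, 12.35, 13.68 and 13.55 in L12YT-ECKO. In both knockout groups 3 of 4 libraries lay above all WT libraries. The differences from WT were 0.58 in each (SE 0.283, adjusted p = 0.415 and 0.799), but with the displaced rows as a covariate that of L12-ECKO was -0.03 and that of L12YT-ECKO 0.17. Pdia4, Pdia6, P4hb, which is also a subunit of collagen prolyl hydroxylase, and Ppib differed from WT by -0.34 to 0.34 in L12-ECKO and by -0.62 to 0.17 in L12YT-ECKO.

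In the translocation group, which holds the 3 Sec61 channel subunits, 4 subunits of the translocon-associated protein (TRAP) complex, 3 of the signal peptidase and Serp1, a translocon-associated stress protein, 8 of 11 means were higher in L12-ECKO than in WT (median 0.27), 4 of 11 in L12YT-ECKO (median -0.17), and 3 of 11 were higher in L12YT-ECKO than in L12-ECKO (median -0.16). The 3 lower in L12-ECKO were all TRAP subunits, Ssr1, Ssr2 and Ssr4, at -0.05, -0.64 and -0.62. Sec61g, the gamma subunit, stood at 12.21, 12.36, 12.63 and 12.57 in WT, 12.60, 13.09, 13.25 and 13.13 in L12-ECKO, with 12.93, 13.15, 13.27 and 12.30 in L12YT-ECKO. In each knockout group 3 of 4 libraries were above all WT libraries. Its differences were 0.58 (SE 0.238, limma adjusted p = 0.335) and 0.47 (adjusted p = 0.807).

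Spcs2, a signal peptidase subunit, stood at 9.19, 8.61, 9.86 and 8.85 in WT, 10.31, 10.10, 10.22 and 9.53 in L12-ECKO, with 9.52, 9.77, 9.84 and 10.16 in L12YT-ECKO. In L12-ECKO 3 of 4 libraries were above all WT libraries, and in L12YT-ECKO 1 of 4. Its differences were 0.92 (SE 0.348, limma adjusted p = 0.282) and 0.70 (adjusted p = 0.804). Spcs3, another subunit of the same peptidase, singled out after its values were seen, stood at 5.973, 8.070, 8.003 and 7.844 in WT, 7.53, 7.35, 7.70 and 8.57 in L12-ECKO, with 6.95, 4.96, 6.76 and 6.80 in L12YT-ECKO. All 4 L12YT-ECKO libraries lay below all L12-ECKO libraries, 3 of them above WT replicate 1, and the difference between the knockout groups was -1.42 (SE 0.709, adjusted p = 0.821). Sec61b, the beta subunit of the channel, stood at 9.45, 9.35, 10.76 and 8.97 in WT, 10.10, 10.40, 10.50 and 9.44 in L12-ECKO, with 9.49, 9.56, 9.23 and 8.83 in L12YT-ECKO. WT replicate 3 was the highest of all, and only L12-ECKO replicate 4 lay among the L12YT-ECKO libraries. Sec61b differed by 0.48 in L12-ECKO and -0.35 in L12YT-ECKO from WT and by -0.83 (SE 0.396, adjusted p = 0.806) between the knockout groups. Spcs1, the remaining peptidase subunit among the members, differed from WT by 0.27 in L12-ECKO and -0.40 in L12YT-ECKO (SE 0.384).

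ER-associated degradation returns misfolded proteins to the cytosol for ubiquitination. Syvn1 encodes HRD1, the ubiquitin ligase at its core (chromosome 19, 6046576 to 6053712, plus strand). It stood at 6.18, 7.66, 8.37 and 8.18 in WT, 9.55, 9.68, 8.11 and 10.05 in L12-ECKO, with 9.51, 9.87, 9.48 and 10.15 in L12YT-ECKO. Every L12YT-ECKO library lay above every WT library; in L12-ECKO 3 of 4 did, and replicate 3 lay below 2 WT libraries. Means were 7.597 ± 0.993, 9.35 ± 0.85 and 9.75 ± 0.32 (SD, n = 4 each), with differences from WT of 1.75 in L12-ECKO (SE 0.506, limma adjusted p = 0.147) and 2.16 in L12YT-ECKO (SE 0.506, adjusted p = 0.443). Both missed the threshold, and the larger difference has the larger adjusted p because it was adjusted in a comparison where few genes had small p-values. Within the libraries without displaced rows, which leave 1 L12-ECKO and 2 L12YT-ECKO libraries beside the 4 of WT, the differences were 1.96 and 2.09. Mrpl49, a mitochondrial ribosomal protein gene, overlaps the 3-prime end of Syvn1 on the opposite strand, and its means were 6.47 ± 1.06, 7.76 ± 0.36 and 8.26 ± 0.82 (SD, n = 4 each); its part in the Syvn1 values was not tested.

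Herpud1, the membrane protein that assembles the HRD1 complex (chromosome 8, 94386438 to 94395377), was the member with the smallest spread within groups. It stood at 8.66, 8.51, 9.07 and 9.06 in WT, 9.28, 9.32, 9.39 and 9.22 in L12-ECKO, with 9.360, 9.216, 8.997 and 9.412 in L12YT-ECKO. All L12-ECKO libraries lay above all WT libraries, and 3 of 4 L12YT-ECKO libraries did. Its differences of 0.48 and 0.42 (SE 0.334 each, limma adjusted p = 0.566 and 0.868) did not pass, with a standard error that limma drew up from the small spread of this gene (0.200) toward that of genes of like level. Sel1l, the partner of HRD1, stood at 9.67, 10.30, 9.93 and 9.26 in WT, 10.24, 10.89, 8.25 and 10.60 in L12-ECKO, with 10.78, 10.46, 10.47 and 10.21 in L12YT-ECKO. L12-ECKO replicate 3 was the lowest of all libraries, and the differences were 0.20 and 0.69 (SE 0.450). Edem1, which marks misfolded glycoproteins for removal, was lower in both, by -0.72 and -0.81 (SE 0.746).

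**Figure D3:**
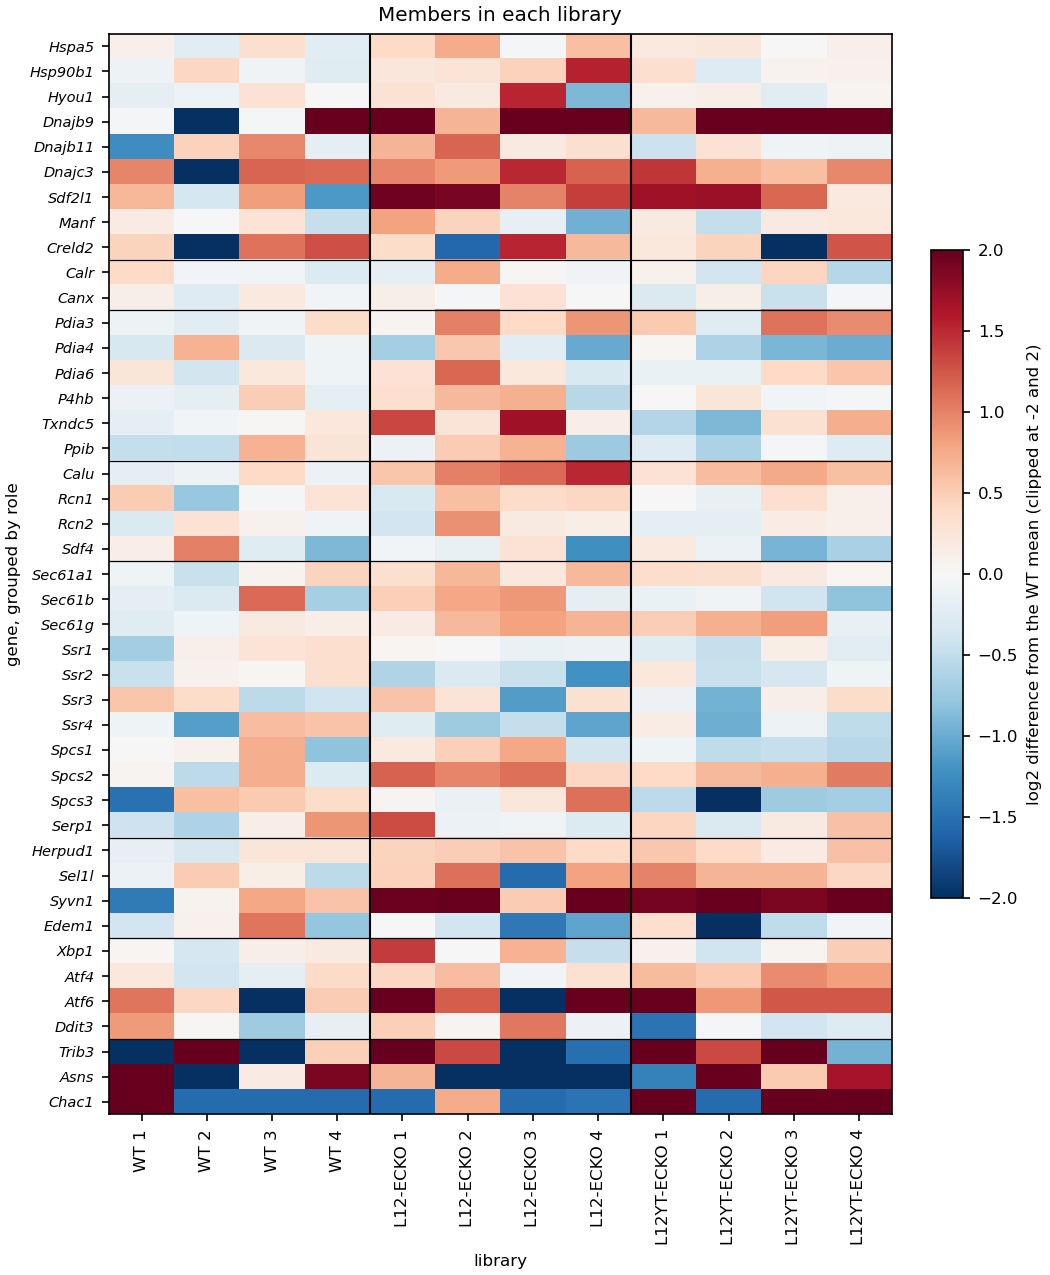
Difference of each of the 43 genes from its WT mean in every library, in log2 units clipped at -2 and 2, with rows grouped by role and columns by group. Calu and Syvn1 are above their WT means in all 8 knockout libraries, as are Dnajb9, Dnajc3, Sdf2l1, Sec61a1, Spcs2 and Herpud1. The rows of Dnajb9, Trib3, Asns and Chac1 are uneven within groups.

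Of the 4 transcription factors of the response all had higher means in L12-ECKO than in WT (median 0.34) and 3 in L12YT-ECKO (median 0.40), and none passed the test. Atf4 encodes the factor downstream of PERK and of amino acid shortage (chromosome 15, 80255184 to 80257541). It stood at 12.61, 12.02, 12.21 and 12.78 in WT, 12.82, 13.02, 12.36 and 12.72 in L12-ECKO, with 13.03, 12.94, 13.35 and 13.23 in L12YT-ECKO. The L12YT-ECKO libraries lay above all WT libraries, and the L12-ECKO libraries overlapped both. Means were 12.41 ± 0.35, 12.73 ± 0.28 and 13.14 ± 0.19 (SD, n = 4 each), with differences from WT of 0.32 (SE 0.227, limma adjusted p = 0.566) and 0.73 (SE 0.227, adjusted p = 0.617). Atf4 is regulated chiefly at translation, which RNA levels do not show.

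Ddit3, the gene of the factor CHOP that ATF4 induces, stood at 9.19, 8.37, 7.64 and 8.18 in WT, 8.82, 8.39, 9.39 and 8.23 in L12-ECKO, with 6.87, 8.31, 7.95 and 8.08 in L12YT-ECKO. All groups overlapped, and its differences were 0.37, -0.54 and, between the knockout groups, -0.90 (SE 0.489, limma adjusted p = 0.825). The Ddit3 difference of L12-ECKO was 0.65 without WT replicate 1, 0.13 without WT replicate 3 and 0.14 without L12-ECKO replicate 3, and that of L12YT-ECKO was -0.26 without WT replicate 1 and -0.23 without L12YT-ECKO replicate 1; that between the knockout groups was -0.59 without L12YT-ECKO replicate 1. Xbp1, whose messenger IRE1 splices, differed by 0.41 in L12-ECKO and 0.06 in L12YT-ECKO (SE 0.352); 3-prime reads do not tell the spliced from the unspliced form. Atf6 was listed at 0 in L12-ECKO replicate 3 and at 8.52 in replicate 1, and its differences of 0.24 and 1.49 had an SE of 1.48.

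The 3 targets of ATF4 were too sparse to read. Asns, the asparagine synthetase gene, stood at 6.94, 0, 4.66 and 6.38 in WT, 5.17, 1.28, 0 and 2.34 in L12-ECKO, with 3.14, 7.49, 5.02 and 6.14 in L12YT-ECKO. Chac1, a glutathione-degrading enzyme gene, stood at 6.18 in WT replicate 1 and was listed at 0 in the other 3. In L12-ECKO it stood at 0, 2.29, 0 and 0.07, and in L12YT-ECKO at 5.66, 0, 4.54 and 4.37. It was above 0 in 6 of 12 libraries, Trib3 in 9 and Asns in 10, and a 0 may be a gene not sampled. L12-ECKO replicate 3, where Atf6, Trib3, Asns and Chac1 were all at 0, listed no value between 0 and 4.98. The differences between the knockout groups were 3.25 for Asns (SE 1.78, limma adjusted p = 0.831), 3.05 for Chac1 (SE 1.86, adjusted p = 0.875) and 1.54 for Trib3 (SE 1.93, adjusted p = 0.963), all higher in L12YT-ECKO and none passing.

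Seen library by library, the median difference of the 43 genes from their WT means was -0.09, -0.11, 0.19 and 0.00 in the WT libraries, 0.37, 0.60, 0.28 and 0.11 in L12-ECKO, with 0.20, -0.07, 0.17 and 0.11 in L12YT-ECKO. Over all genes tested the same quantity was 0.05 to 0.06 in WT, 0.00 to 0.14 in L12-ECKO and 0.11 to 0.17 in L12YT-ECKO. L12-ECKO replicates 1 and 2 were the highest, and WT replicate 3 was above L12-ECKO replicate 4, so the groups overlapped. In L12-ECKO replicates 1 to 4 the hepatocyte mean was 0.87, 5.98, 6.58 and 3.63, beside members' medians of 0.37, 0.60, 0.28 and 0.11. In L12YT-ECKO the 2 libraries with high hepatocyte means (5.11 and 4.99) had medians of 0.17 and 0.11 and the 2 with low means (0.80 and 1.62) had 0.20 and -0.07. With the hepatocyte mean as a covariate the median difference was 0.21 in L12-ECKO and -0.01 in L12YT-ECKO. The part of the myeloid transcripts of L12-ECKO replicate 1 was not tested; without that library 30 of 43 genes were higher, with a median of 0.29.

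**Figure D4:**
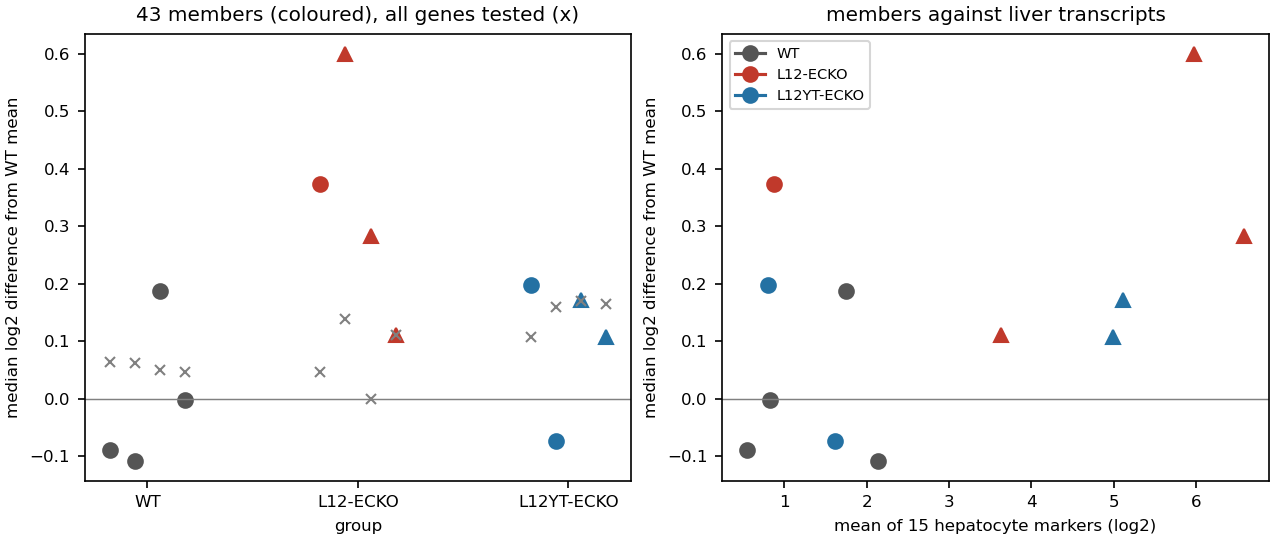
Left, the median difference of the 43 genes from their WT means in each library (circles, or triangles for libraries with displaced rows), with that of all genes tested as crosses; right, the same medians against the mean of 15 hepatocyte markers in each library. L12-ECKO replicates 1 and 2, at 0.37 and 0.60, are the highest, at hepatocyte means of 0.87 and 5.98.

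Members whose promoter holds the ER stress element were compared with the other members that have a promoter, as a description. Herpud1 and Dnajb11, which hold only the shorter form, were counted among the others. In L12-ECKO against WT 8 of 8 holders were higher, with a median of 0.38, and 21 of 28 others, with a median of 0.28. In L12YT-ECKO against WT it was 5 of 8 (median 0.10) and 15 of 28 (median 0.05), and between the knockout groups 1 of 8 holders (Syvn1) and 7 of 28 others were higher in L12YT-ECKO (medians -0.25 and -0.15). The holders spanned 0.09 (Canx) to 1.75 (Syvn1) in L12-ECKO, both with the element on the gene's own strand. Calu, the called member, has none in this window.

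The wider pathway was read from 7 lists of 131 further genes, of which 119 were tested. In L12-ECKO 80 of them had higher means than WT and 39 lower (median 0.27), 1 was called and 17 (14.3%) had an unadjusted p under 0.05, beside 0.484% and 12.2% of all genes. In L12YT-ECKO 79 were higher and 40 lower (median 0.19), with none called and 7 (5.88%, beside 6.26% of all genes) at an unadjusted p under 0.05. Between the knockout groups 52 were higher and 67 lower in L12YT-ECKO (median -0.09), with none called. An unadjusted p under 0.05 was found there for 4 (3.36%, beside 6.08%). Over all genes tested the medians of the 3 comparisons were -0.02, 0.08 and 0.09. The called gene was Ddit4, which encodes REDD1, an inhibitor of mTORC1 induced by ATF4 and by other stresses. It stood at 9.36, 9.97, 10.29 and 9.63 in WT, 11.61, 12.23, 11.16 and 11.72 in L12-ECKO, with 11.86, 11.05, 10.99 and 9.56 in L12YT-ECKO. All L12-ECKO libraries lay above all WT libraries, and the difference was 1.87 (SE 0.396, limma adjusted p = 0.0467) or 3.65-fold; in L12YT-ECKO 3 of 4 libraries did and the difference was 1.05 (adjusted p = 0.748). The call was kept in 7 of 22 alternatives and lost in 15, among them 8 of the 12 that leave out 1 library (WT replicate 1, 2 or 4, L12-ECKO replicate 1, 2 or 4, L12YT-ECKO replicate 2 or 3; adjusted p up to 0.126), with differences of 1.69 to 2.35 on the log2 scale in all but the one with a second logarithm.

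Ddit4 belongs to the list of amino acid and ATF4 programme genes, of which 13 were tested: 11 were higher in L12-ECKO (median 1.29) and 6 of these had an unadjusted p under 0.05 (12.2% of all genes had one), among them Atf5, Cebpb, Nars, Slc7a5 and Wars. Atf5, a transcription factor induced with ATF4, differed by 1.40 (SE 0.407, adjusted p = 0.147) with all L12-ECKO libraries above all WT libraries. In Cebpb, at 13.47 in L12-ECKO replicate 1 and 8.81 to 9.64 in the other 3, the library with high myeloid transcripts stood apart. In L12YT-ECKO 11 of the 13 were higher than WT (median 0.51), with the tryptophanyl-tRNA synthetase gene Wars at 1.78 (SE 0.562, adjusted p = 0.632). Of the 8 tested sensor and translation control genes 4 were higher in L12-ECKO (median 0.01) and 3 in L12YT-ECKO (median -0.05); Ppp1r15a, the phosphatase subunit that reverses PERK signalling, stood above all WT libraries in L12YT-ECKO, with a difference of 1.26 (SE 0.374, adjusted p = 0.557).

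In the other lists no gene was called in any comparison. Of 16 further degradation genes 12 were higher in L12-ECKO (median 0.20), with the ubiquitin-conjugating enzyme Ube2g2 at 1.19 (limma adjusted p = 0.216). Of 25 further folding and oxidation genes 12 were higher (median -0.03). An unadjusted limma p under 0.05 was found for 4 of them (16%, beside 12.2% of all genes), 2 higher and 2 lower. Erp44, which retains proteins in the early secretory pathway, was at 1.36 (adjusted p = 0.279), and Uggt1 at 0.92 (adjusted p = 0.3515). The membrane thioredoxin gene Tmx4 and Sil1, a nucleotide exchange factor of BiP, were at -1.16 and -1.10 (adjusted p = 0.386 and 0.403). Of 23 translocation and glycosylation genes 16 were higher (median 0.21), with the signal recognition particle subunit Srp9 at 1.38 (adjusted p = 0.195). Among 22 genes of vesicle traffic from the ER 16 were higher (median 0.30), with the cargo receptor Tmed9 at 0.83 (adjusted p = 0.181). The 12 heat shock genes of the cytosol and, for Hspd1 and Hspe1, the mitochondria had 9 higher and a median of 0.18, with Hsp90ab1 at 0.45 (adjusted p = 0.412).

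In L12YT-ECKO against WT the medians of these lists were 0.34 for degradation, 0.32 for folding, 0.03 for translocation and glycosylation, 0.18 for vesicle traffic and 0.11 for heat shock genes. The smallest p-values of the lists were those of Ube2g2 (0.97, limma adjusted p = 0.756), the thioredoxin-domain gene Txndc11 (1.02, adjusted p = 0.756), the Sec61 paralogue Sec61a2 (4.03, adjusted p = 0.756), the SNARE gene Sec22b (1.03, adjusted p = 0.823) and Hsp90ab1 (0.28, adjusted p = 0.867). Sec61a2 and Sec22b lay above all WT libraries in all 4 L12YT-ECKO libraries. Sec61a2 was listed at 0 in WT replicates 2 and 3. In WT replicates 1 and 4 it stood at 3.009 and 3.042, the lowest values above 0 in those libraries. The size of its difference therefore depends on where that floor lies. Between the knockout groups the selenoprotein gene Vimp, a partner of the degradation machinery, was at -0.97 (adjusted p = 0.671) with all L12YT-ECKO libraries below all L12-ECKO libraries, and the ER peroxiredoxin gene Prdx4 at 2.39 (adjusted p = 0.806) with all above. Atf5 was at -0.90, Srp9 at -0.74, Tmed9 at -0.55, Ppp1r15a at 0.51 and Hspa8 at -0.43 there, and none passed.

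What the 12 libraries can show differs between the members. The residual SD within groups ran from 0.200 in Herpud1 and 0.203 in Canx to 2.75 in Trib3, with a median of 0.55 over the 43 genes. For Canx the 95% interval of the difference between L12-ECKO and WT runs from -0.34 to 0.52 on the log2 scale, and for Trib3 from -3.95 to 4.11. A missed threshold in the sparse genes therefore carries no statement on their direction.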

How the data were processed

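RNA of sorted lung endothelial cells was read in 12 libraries, 4 per genotype, with a 3-prime tag method and the NextSeq 500, per the labels. The authors deposited 1 table per library with log2 values per gene. In each table the values run from 0 to 20.665, so they appear quantile-normalized, the depth is unknown and whole reads could not be recovered. The lowest value above 0 was 3.01 to 3.16 in WT, 0.07 to 4.98 in L12-ECKO and 0.13 to 2.77 in L12YT-ECKO. L12-ECKO replicate 3 listed 9850 genes above 0, and the other libraries 11100 to 13078. Differences of low-expressed genes therefore compare libraries with unlike floors. The submitters' processing notes name Bowtie2, edgeR and mm10, without versions or settings. Rows were joined by symbol (24394 shared names, of which 34 displaced rows were left out), and genes at 1 CPM or more in at least 4 libraries were tested. CPM here was computed from the normalized values brought back to the linear scale, not from reads. It is thus a cut on the normalized value, at a log2 value of about 3.64. Group means of all 12 libraries were compared with limma 3.58.1 in R 4.3.3 (moderated variances with trend and robust prior, Benjamini-Hochberg adjustment over the 11562 genes tested, called at an adjusted p under 0.05), checked on simulated data. The simulation drew normal values without unlike floors or displaced rows, and its changed genes were all well expressed. It therefore does not vouch for the test in sparse genes. Promoter sequences are RefSeq's (GRCm38.p6) and gene coordinates GENCODE vM21's on GRCm38.

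The members and gene lists were chosen with earlier results of these data known. Named with full values were members called or with the 4 libraries of a knockout group apart from WT, and in each role group the member with the smallest unadjusted p in each comparison and that with the highest mean; of each further list, called genes or that with the smallest unadjusted p were named. Spcs3 in full, Trib3, Atf6, Xbp1, Edem1 and the members named beside ranges were added after their values were seen. So were Cebpb, Nars, Slc7a5, Atf3, Aars, Psat1, Vldlr, Uggt1, Tmx4 and Sil1 of the further lists, and Atf5 and Wars in L12-ECKO against WT. No p-value was adjusted over the list alone. The alternatives, whose effect is given in the closing section, were another log, filters, prior, centring, the displaced rows, sex and hepatocyte means as covariates, the replicate block, and leaving out each library. Those for Ddit4 were added after seeing the data.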

Additional observations from a re-analysis of the deposited data

Results flagged for a closer look

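In 10 of 132 sets of 4 libraries, 1 for each member in each group and 1 for the members' median in each group, a library stood far from the other 3 by Dixon's criterion, which chance does in about 1 in 20 sets. Dnajc3 was at 4.994 in WT replicate 2 and 9.236 to 9.421 in the other WT libraries. Spcs3 was at 5.973 in WT replicate 1 (others 7.844 to 8.07) and at 4.963 in L12YT-ECKO replicate 2 (others 6.764 to 6.948). Calu was at 13.743 in WT replicate 3 (others 13.173 to 13.242), so the WT library closest to L12-ECKO is the one that stood apart. P4hb was at 12.159 in WT replicate 3 (others 11.47 to 11.543). Serp1 was at 10.888 in L12-ECKO replicate 1 (others 9.301 to 9.515). Hyou1 was at 9.551 in L12YT-ECKO replicate 3 (others 9.83 to 9.882), and Manf at 8.56 in L12YT-ECKO replicate 2 (others 9.206 to 9.237). Chac1 was at 6.177 in WT replicate 1, with the others listed at 0, and at 2.294 in L12-ECKO replicate 2 (others 0 to 0.067).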

How the results depend on the processing

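Members called in L12-ECKO against WT numbered 0 in place of 1 with a second logarithm, with no filter on low values, with no trend and robust prior, with the displaced rows, sex or the hepatocyte mean as a covariate, and within the libraries without displaced rows, where L12-ECKO has 1 library that is assumed to vary like the other groups, so that this 0 says nothing on stability; leaving out 1 library gave 0 to 1. The call was kept with values raised to 5, where 41 members were tested, with re-centring and with the replicate block. In the other 2 comparisons the count was 0 under all 22 alternatives. The members' median was 0.0379 (L12-ECKO against WT) and -0.0264 (L12YT-ECKO against L12-ECKO) with the second logarithm, whose unit is smaller by construction. Leaving out 1 library gave medians of 0.225 to 0.3902, -0.0234 to 0.1548 and -0.2643 to -0.0948 in the 3 comparisons. Over all genes the calls in L12-ECKO against WT (56) were 27 with the second logarithm, 21 with no filter, 87 raised to 5, 7 with no trend, 15 with the displaced rows or sex, 18 with the hepatocyte mean and 15 to 80 with 1 library left out. Those between the knockout groups (8) were 4 with the second logarithm, 3 with no trend, 5 with sex, 14 within the libraries without displaced rows and 4 to 9 with 1 library left out, and those of L12YT-ECKO against WT (1) were 1 to 3. Same-numbered libraries of different groups correlated at -0.047 to 0.061 in their deviations, and not every library correlated best with its own number. Pairing by number was thus not seen, though such low correlations cannot exclude it. The replicate block gave 43, 1 and 6 calls and left Calu at an adjusted p of 0.0258.

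Of 1251 recomputed differences of the 19 named members 1198 kept direction and side of the threshold, 14 (all Calu) lost the call and 39 changed sign; the cause was not tested. With the displaced rows as a covariate, L12-ECKO against WT gave -0.0386 for Calr and -0.025 for Pdia3, L12YT-ECKO against WT gave -0.0652 for Hsp90b1, and the knockout groups gave 0.0987 for Dnajb9 and 0.1968 for Pdia3. Within the libraries without displaced rows Calr was -0.184 and Asns 0.6755 in L12-ECKO, and between the knockout groups Herpud1 was 0.012, Calr 0.035, Pdia3 0.0885 and Sec61g 0.436. With sex as a covariate the knockout groups gave 1.0402 for Dnajb9, 0.309 for Pdia3 and 0.0941 for Sec61g, and with the hepatocyte mean 0.1379 for Pdia3, while Calr was -0.0244 in L12-ECKO. Leaving out 1 library in L12-ECKO against WT gave -0.0753 to 0.2627 for Calr, -1.5219 to 0.5903 for Chac1 and -0.0932 to 0.7865 for Sel1l. In L12YT-ECKO against WT it gave -0.0334 to 0.1977 for Hsp90b1, -0.2873 to 0.0423 for Calr, -0.3942 to 0.1485 for Txndc5, -0.5498 to 1.7638 for Asns and -0.5728 to 0.0232 for Sec61b. Between the knockout groups it gave -0.111 to 0.0273 for Herpud1, -0.0084 to 0.6399 for Syvn1, -0.6049 to 0.5661 for Dnajb9, -0.1853 to 0.268 for Pdia3, -0.0953 to 0.7844 for Sel1l and -0.2452 to 0.0973 for Sec61g. Depth is unknown, so no counting error could be given, and members listed at 0 in some libraries are the least certain.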

Other observations

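Ern1, the gene of the sensor IRE1, was below the filter on low values and entered no test. It was listed at 0 in all 4 WT and all 4 L12-ECKO libraries, and at 6.06, 1.39, 4.77 and 5.04 in L12YT-ECKO. Only 3 of these values are above the filter level of 3.64, and the gene was singled out after its values were seen. Depth is unknown, so a listed 0 gives no upper limit, and no fold change is given. The lowest value above 0 also differed, at 3.01 to 3.16 in WT, 0.07 to 4.98 in L12-ECKO and 0.13 to 2.77 in L12YT-ECKO.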
